A study of Mus musculus and Rattus norvegicus with 30 samples.

Results

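The genes described here are 4, of which 3 encode beta subunits of voltage-gated sodium channels, Scn2b, Scn3b and Scn4b, and the last is LncRNA1779, a long noncoding RNA (LncRNA) that the study assembled from its own reads just past the end of Scn4b in mouse. They were chosen by name, for their levels, their change after nerve injury and the relation of LncRNA1779 to Scn4b from library to library. The study itself had picked LncRNA1779 for qPCR partly by the size and significance of its change in these mice. The members are 4 of 54315 features listed for mouse, and all 4 were among the 24685 features that passed the filter on low counts. In rat the 3 beta subunit genes were among 39281 features listed and 13690 tested. A rat feature also carries the name LncRNA1779, but the numbering of assembled LncRNAs is separate in each species, and that feature lies at another locus (chr2:148135507-148136838, minus strand, on rn6). It was not used.

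The RNA came from dorsal root ganglia (DRG), which hold the cell bodies of sensory neurons together with satellite glia and other cells. In mouse, L3 and L4 DRG were taken several weeks after spared nerve injury (SNI), a cut of the common peroneal and sural nerves with the tibial nerve left whole, or after sham surgery, from adults of the inbred strains BALB/c and B10.D2. In rat, L5 DRG of male Wistar animals were taken after transection of the L5 spinal nerve (SNT) or after sham surgery. No transgene is named for any group, and the mouse operations were done under isoflurane. The mouse libraries, 1 animal each, comprised, for BALB/c, 6 sham (3 male, 3 female) and 4 SNI (2 male, 2 female), and for B10.D2, 5 sham (3 male, 2 female) and 5 SNI (2 male, 3 female). The rat libraries comprised 4 sham and 4 SNT, each made from 3 pooled animals, so that the spread between rat libraries is a spread between pools. Mouse libraries held 29989963 to 41881331 counts and rat libraries 11954612 to 17887909. Levels are given as CPM, a feature's count over the library's total count and TMM factor (trimmed mean of M values), times 1000000. The mouse libraries were checked for neurons with 8 pan-neuronal markers, which summed to 6527 to 8088 CPM in every library. These markers do not single out DRG from other nervous tissue. The surgery label in mouse was checked against 10 genes known to rise in injured neurons. They summed to 215 to 276 CPM in sham and 324 to 821 CPM in SNI libraries without overlap.

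Sodium channels are built from a large alpha subunit, which forms the pore, and from smaller beta subunits, each with an immunoglobulin-like domain outside the cell and a single pass through the membrane. The subunits beta2 (Scn2b) and beta4 (Scn4b) are tied to the alpha subunit by a disulfide bond, whereas beta3 (Scn3b) binds it without one, and all of them can alter channel gating and cell adhesion. In sensory neurons Scn4b is known above all from large cells with myelinated axons, and the short inner tail of beta4 can act as an open-channel blocker that gives rise to resurgent sodium current. LncRNA1779 has no known function.

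All of these genes lie on the plus strand of mouse chromosome 9 (mm10). Scn3b (ENSMUSG00000049281, chr9:40269217-40291618) stands 4.83 Mb away from the others. Scn2b (ENSMUSG00000070304, chr9:45117782-45130070) and Scn4b (ENSMUSG00000046480, chr9:45138395-45154152) follow one another with 8.32 kb between them. LncRNA1779 (chr9:45155154-45156657) begins after a gap of 1001 bases from the annotated end of Scn4b, and it runs in the same direction. The study set aside annotated genes together with a flank on each side about as long as this gap before it assembled LncRNAs, so that this start lies at the border of the stretch set aside, and whether the RNA reaches further towards Scn4b cannot be told from the deposited model. Its exons are 428 and 671 bases long and are separated by an intron of 405 bases, the ends of which coincide with a deposited splice junction. The sequence at both ends of that intron is shown because it can be read against the strand of the deposited model, with the intron's first and last dinucleotides in capitals.
LncRNA1779 donor, chr9:45155562-45155591, plus strand: tgtcccagaagagtctgaagGTaaggtccc
LncRNA1779 acceptor, chr9:45155977-45156006, plus strand: ctgtccctAGgaatgctgttctagctgtgg

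The intron opens with GT and closes with AG on the plus strand, the letters that most mammalian introns carry. The study's qPCR primers for LncRNA1779 are shown because they fix which piece of the transcript its assay reads. Each matched chromosome 9 at a single place, in exon 1, and together they span 117 bases with no intron between them.
LncRNA1779 forward primer, chr9:45155231-45155250, plus strand: cctggtggccataaggtgag
LncRNA1779 reverse primer, chr9:45155328-45155347, minus strand: cagagcattgggggctacaa

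The end of LncRNA1779 was searched for the poly(A) signal hexamers AATAAA and ATTAAA on the sense strand, in the last 50 bases of the deposited model. It held AATAAA, in capitals here, starting 50 bases before the end, which is at the edge of the window searched.
LncRNA1779 end, chr9:45156596-45156625, plus strand: actgtaaaccttAATAAAtgatttttctat

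The same search found a hexamer in Scn2b, Scn3b and Scn4b, in 826 of 1210 protein-coding genes of chromosome 9 (68.3%) and in 17 of 271 assembled LncRNAs of that chromosome (6.27%). In the 1001 bases between Scn4b and LncRNA1779 neither hexamer was found. All 4 introns of Scn4b and all 3 introns of Scn2b coincided with a deposited plus-strand junction, and no deposited junction started inside Scn4b and ended past its annotated end. One deposited plus-strand junction did join the neighbours Scn2b and Scn4b, from within exon 4 of Scn2b to exon 2 of Scn4b (chr9:45126273-45146672). A further pair of junctions, on the minus strand, ran from inside the span of Scn2b (chr9:45125774-45154869 and chr9:45127070-45154869) to a point 717 bases past the end of Scn4b and 285 bases before LncRNA1779. The first of this pair abuts an exon of Gm10684 (chr9:45125677-45125773), a noncoding minus-strand gene, and not an exon of Scn2b. The deposited file gives no read number for a junction, beyond the study's minimum, so these junctions are listed without a level.

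**Figure D1:**
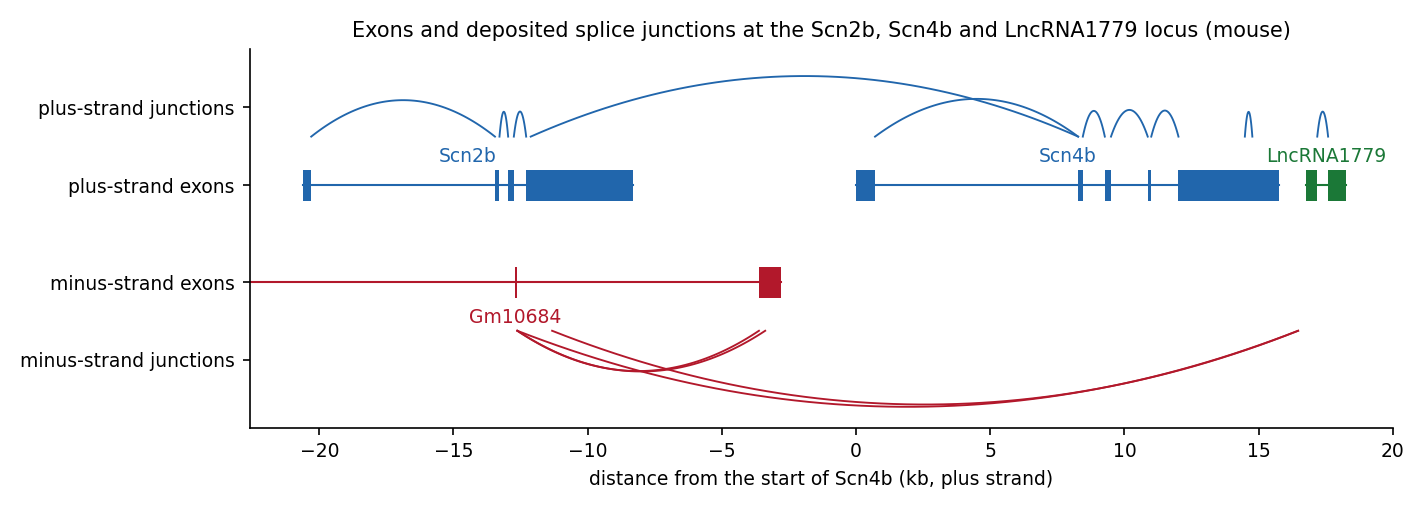
Exons and deposited splice junctions by distance from the start of Scn4b in kb, with plus-strand features above and minus-strand features below (boxes are exons, arcs are junctions, and 3 junctions under 100 bases are left out). LncRNA1779 sits just past the last exon of Scn4b, the long upper arc joins Scn2b to exon 2 of Scn4b, and the 2 long lower arcs end in the gap between Scn4b and LncRNA1779.

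Scn4b was the most abundant member per length of exon. In BALB/c sham libraries Scn4b stood at 83.9 ± 3.13 CPM per kb (SD, n = 6), LncRNA1779 at 18.03 ± 0.679, Scn3b at 13.5 ± 1.24 and Scn2b at 8.27 ± 0.800 CPM per kb. On that scale Scn4b was above LncRNA1779 in 20 of 20 mouse libraries, by 3.82-fold to 5.08-fold. The 3 lower members did not keep one order: LncRNA1779 was above Scn3b in 6 of 6 BALB/c sham libraries, but Scn3b was above LncRNA1779 in 5 of 5 B10.D2 SNI libraries, and between Scn3b and Scn2b the order was the same in every BALB/c library and mixed in B10.D2. In the same BALB/c sham libraries the alpha subunit genes of pain-sensing neurons, Scn10a and Scn11a, stood at 119 ± 13.7 and 97.6 ± 11.2 CPM per kb (SD, n = 6).

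After SNI, Scn4b and LncRNA1779 were lower in both strains, at 73.8% to 77.96% of their sham level, while Scn2b and Scn3b passed the test in neither strain. Scn4b lay between 398 and 439 CPM in the 6 BALB/c sham libraries, with a median of 420 CPM, and at 363, 325, 284 and 338 CPM in the 4 BALB/c SNI libraries. In B10.D2 it read 395, 380, 317, 294 and 318 CPM in sham and 249, 207, 253.5, 283 and 292.5 CPM in SNI libraries. Every SNI library was below every sham library of its strain, though in B10.D2 the nearest values were 294 and 292.5 CPM. How many of all features separate in this way, here or in the comparisons below, was not counted. For BALB/c the group means were 418 ± 15.6 CPM for sham (SD, n = 6) and 328 ± 32.8 CPM for SNI (SD, n = 4), and for B10.D2 they were 341 ± 44.0 and 257 ± 33.6 CPM (SD, n = 5 each).

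**Figure D2:**
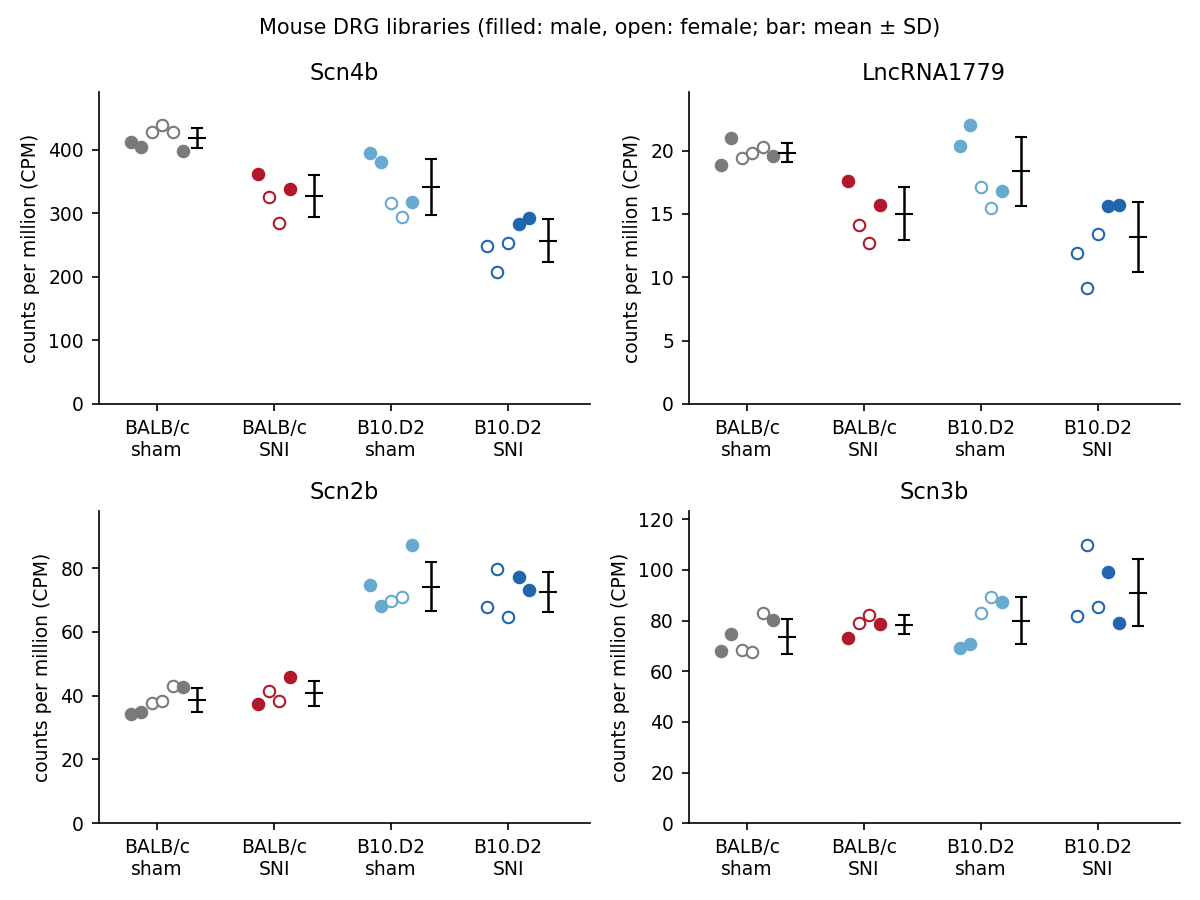
CPM of each member in every mouse library by strain and surgery (filled points male, open points female, bars mean ± SD). Scn4b is lower in all SNI libraries than in all sham libraries of the same strain, LncRNA1779 follows with overlap in B10.D2, and Scn2b separates the strains, at 34.4 to 46.0 CPM in BALB/c and 64.6 to 87.3 CPM in B10.D2.

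The log2 fold change of Scn4b after SNI was -0.36 ± 0.08 (SE) in BALB/c, with an adjusted p of 0.00484, and -0.38 ± 0.08 in B10.D2, with an adjusted p of 0.00523, from edgeR's quasi-likelihood test with Benjamini-Hochberg adjustment over all features tested. LncRNA1779 ranged from 18.9 to 21.0 CPM in BALB/c sham, with a median of 19.7 CPM, and read 17.6, 14.1, 12.7 and 15.7 CPM in BALB/c SNI libraries. In B10.D2 it read 20.4, 21.98, 17.1, 15.5 and 16.8 CPM in sham and 11.9, 9.16, 13.4, 15.6 and 15.7 CPM in SNI libraries. The BALB/c groups did not overlap, whereas in B10.D2 only 3 of the 5 SNI libraries were below the lowest sham library. The counts behind these levels were 359 to 838 per library for LncRNA1779 and 8107 to 17724 for Scn4b.

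The log2 fold change of LncRNA1779 was -0.41 ± 0.10 (SE) in BALB/c, with an adjusted p of 0.0121, and -0.44 ± 0.10 in B10.D2, with an adjusted p of 0.0125, by the same edgeR test. Scn4b and LncRNA1779 were thus 2 of 4 members called lower in each strain, where the share of all features called lower was 4.87% for BALB/c and 2.48% for B10.D2 (9.69% and 4.58% in either direction). Since the study had picked LncRNA1779 partly by its change in these mice, its call here is no separate support. Scn2b, the beta2 gene, had a mean of 40.8 ± 3.94 CPM (SD, n = 4) in BALB/c SNI against 38.5 ± 3.72 (SD, n = 6) in sham, a log2 fold change of 0.08 ± 0.08 (SE) with an edgeR adjusted p of 0.614. In B10.D2 the log2 fold change of Scn2b was -0.02 ± 0.08 (SE), adjusted p of 0.925 by edgeR, with an approximate 95% interval from -0.18 to 0.13. Scn3b, the beta3 gene, ranged from 67.8 to 83.1 CPM in BALB/c sham and from 73.1 to 82.0 CPM in SNI libraries, whereas the B10.D2 libraries ranged from 69.3 to 89.4 and from 79.1 to 110.0 CPM. The log2 fold changes of Scn3b were 0.09 ± 0.09 (SE) in BALB/c and 0.18 ± 0.09 in B10.D2, with edgeR adjusted p-values of 0.623 and 0.331. In B10.D2 the approximate 95% interval, from 0.0017 to 0.35, lay just above 0, while edgeR's unadjusted p was 0.0615, so the interval is somewhat narrower than the test allows.

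Whether the strains respond differently was tested as an interaction, B10.D2 minus BALB/c. For Scn4b the difference between the changes was -0.02 ± 0.11 (SE) on the log2 scale, with an interval from -0.24 to 0.20, and for LncRNA1779 -0.03 ± 0.14, with an interval from -0.31 to 0.25. Scn2b gave -0.11 ± 0.12 and Scn3b 0.09 ± 0.13. By edgeR's test no member was called, with unadjusted p-values of 0.369 to 0.857, nor by DESeq2, and 6 of all features tested (0.0243%) were called by edgeR. A difference in response smaller than these intervals was not detectable with these libraries.

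**Figure D3:**
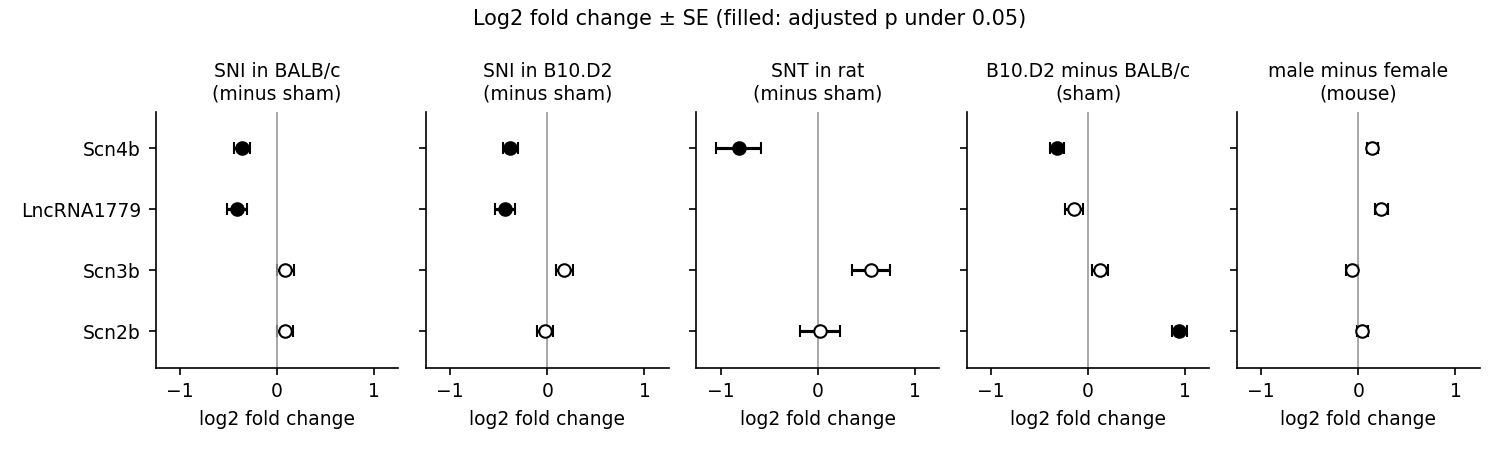
Log2 fold change of each member in 5 comparisons, with SE as bars and filled points where the edgeR adjusted p is under 0.05. Scn4b is to the left of 0 after SNI in both strains and after SNT, LncRNA1779 after SNI in both strains, and the largest value, 0.94, is that of Scn2b between the strains.

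DRG hold many cell types, and in such bulk samples fewer cells of a type and less RNA per cell cannot be told apart. Several of 10 markers of large sensory neurons, a list that does not hold Scn4b, were also lower after SNI. The 10 summed to 4148 to 4845 CPM in BALB/c sham against 2933 to 3471 CPM in SNI libraries, and to 3544 to 4584 against 2695 to 3605 CPM in B10.D2, where the groups overlapped, and none of them was at 0 throughout. By edgeR 6 of the 10 were called lower in BALB/c and 5 of 10 in B10.D2, where 4.87% and 2.48% of all features were. Among them in BALB/c were Pvalb (parvalbumin, log2 fold change -0.95 ± 0.27 SE) and Nefh (neurofilament heavy chain, -0.70 ± 0.08). In B10.D2 Pvalb was at -1.26 ± 0.27 and Nefh at -0.50 ± 0.08. Among those called in neither strain, Ntrk2 was higher, with log2 fold changes of 0.09 and 0.14, each for BALB/c first. Ntrk3 had -0.28 and -0.20, Necab2 -0.01 and 0.02, and Calb1 -0.03 and -0.10. The median change of the list was -0.36 in BALB/c and -0.28 in B10.D2, against 0.003 and 0.008 over all features tested. A list of 7 nociceptor markers overlapped between sham and SNI, with sums of 2780 to 3534 against 2784 to 3074 CPM in BALB/c and of 2922 to 3433 against 2660 to 3194 CPM in B10.D2. None of the 7 was called in either strain, and the list medians were -0.13 and -0.03. Of 8 pan-neuronal markers 2 were called in BALB/c, Snap25 lower (-0.51) and Stmn2 higher (0.29). In B10.D2 only Snap25 was called (-0.43). Of all features 9.69% and 4.58% were called in either direction in BALB/c and B10.D2. Of 5 macrophage markers 2 were called higher after SNI in BALB/c, where 9.69% of all features were called in either direction. Their sums there were 30.1 to 71.4 CPM in sham and 55.9 to 85.4 CPM in SNI libraries. In B10.D2 none of the 5 was called, and the macrophage sums were 58.6 to 63.7 CPM in sham and 65.2 to 105 CPM in SNI libraries, without overlap. The part of these markers in the change of Scn4b and LncRNA1779 was not tested.

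LncRNA1779 followed Scn4b from library to library. Over the 20 mouse libraries log2(CPM + 1) of the pair had Pearson's r = 0.925 and Spearman's rho = 0.850, each with a two-sided permutation p of 1e-05, the smallest that 100000 resamples can give, and 0.00013 after Benjamini-Hochberg adjustment over 13 relations. Without the 2 libraries farthest from the median of Scn4b, r was 0.871 (permutation p = 3e-05, 18 libraries). Both features were lower after SNI, and Scn4b also differed between the strains. The relation was therefore taken again on values centred on the mean of each strain and surgery group. It was then as close, with r = 0.931 (permutation p = 7e-05, adjusted 0.000303) and rho = 0.865 (permutation p = 0.00014, adjusted 0.00091), and r = 0.920 without the 2 farthest libraries (permutation p = 0.00036).

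**Figure D4:**
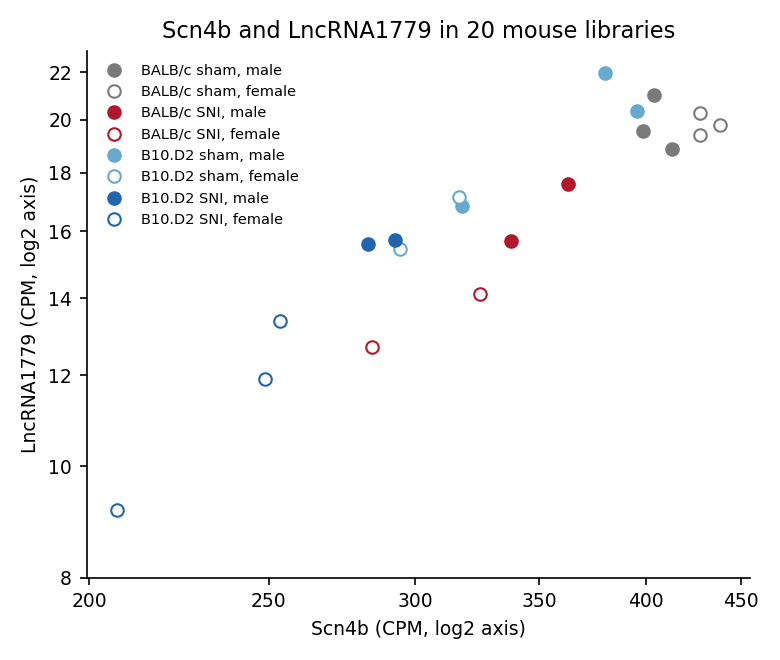
CPM of LncRNA1779 against CPM of Scn4b in the 20 mouse libraries, both on log2 axes (colours are strain and surgery, filled points male, open points female). The 2 features rise together from the B10.D2 SNI female at 207 and 9.16 CPM to the sham libraries, except that the 6 BALB/c sham libraries form a cluster with r = -0.108. The strains are offset in sham, with 4.75 LncRNA1779 counts per 100 Scn4b counts in BALB/c and 5.38 in B10.D2.

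Within BALB/c r was 0.955 (permutation p = 0.00017) and rho 0.770 (permutation p = 0.0128) over 10 libraries, and within B10.D2 r was 0.980 (permutation p = 3e-05) and rho 0.939 (permutation p = 0.00023). Without the 2 farthest libraries of each strain these r were 0.859 (exact permutation p = 0.0104) and 0.983 (exact permutation p = 0.000198). These within-strain values pool sham and SNI libraries without centring, so the shift of both features with injury is part of them. Split by surgery, r was 0.810 in the 11 sham libraries (permutation p = 0.00474) with a rho of 0.391 (permutation p = 0.239), and without the 2 farthest r was 0.533 (exact permutation p = 0.156). In the 9 SNI libraries r was 0.889 (exact permutation p = 0.0017) and rho 0.850 (exact permutation p = 0.00607), but 0.644 without the 2 farthest (exact permutation p = 0.13). Leaving those libraries out also narrows the range of Scn4b, so these lower values cannot tell whether the relation among sham or SNI libraries alone rests on them. The 6 BALB/c sham libraries, in which Scn4b varied least, had r = -0.108 (exact permutation p = 0.842) and rho = -0.086 (exact permutation p = 0.919).

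Sex was a term of the mouse model, so the relation was also centred on strain, surgery and sex together, a version added after the data were seen. There r was 0.883 (permutation p = 0.00953, adjusted 0.0155) and rho 0.824 (permutation p = 0.00786), with r = 0.752 without the 2 farthest libraries (permutation p = 0.0851). Scn3b had the opposite sign within groups. The relations of Scn3b and Scn2b were centred on strain and surgery only, and the part of sex in them was not tested. Centred on group, Scn3b and Scn4b had r = -0.703 (permutation p = 0.00448, adjusted 0.0088) and rho = -0.677 (permutation p = 0.00746), and r = -0.548 without the 2 farthest libraries (permutation p = 0.0442). Scn3b and LncRNA1779 had r = -0.583 (permutation p = 0.0292) and rho = -0.481 (permutation p = 0.0765), which came to r = -0.389 without the 2 farthest (permutation p = 0.137). Scn2b was close to unrelated to either, with r = -0.087 to Scn4b (permutation p = 0.74) and -0.150 to LncRNA1779 (permutation p = 0.56), and r = 0.548 to Scn3b (permutation p = 0.0206, adjusted 0.0298) with rho = 0.430 (permutation p = 0.077).

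Ranked against 24684 other features by r over the 20 libraries, which share strain, surgery, depth and library, LncRNA1779 came to place 11 in the list of Scn4b, and Scn4b to place 8 in the list of LncRNA1779. On group-centred values these places were 2 and 1. The 5 features most like Scn4b were Ogdhl (r = 0.964), Myh10 (0.954), Kndc1 (0.946), Pacsin2 (0.940) and Asic1 (0.940). Those most like LncRNA1779 were Syt2 (r = 0.966), Slc17a7 (0.957), Nectin4 (0.947), Ryr2 (0.937) and Cabp1 (0.932). Scn3b was followed most closely by Syt16 (r = 0.938), Zcchc12 (0.931), Trpv1 (0.913), Hotair (0.912) and the assembled LncRNA494 (0.901). Those most like Scn2b were Cep78 (r = 0.979), Hyi (0.977), Ccdc40 (0.976), Fam89a (0.976) and Wfdc2 (0.974), and with groups centred these values lay at 0.524 to 0.817.

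The amount of LncRNA1779 per Scn4b was also compared between groups. There were 4.95 ± 0.422 LncRNA1779 counts for every 100 Scn4b counts over the 20 libraries (SD, n = 20), with a range of 4.34 to 5.78. Per kb of exon, LncRNA1779 stood at 22.4% ± 1.91 of Scn4b (SD, n = 20), and at 19.7% to 26.2% in single libraries. SNI moved the log2 ratio by -0.05 in BALB/c (exact permutation p = 0.333, two-sided, 4 against 6 libraries) and by -0.09 in B10.D2 (exact permutation p = 0.246, 5 against 5). A change of the ratio with injury was thus not detectable in either strain.

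Between the strains the ratio differed in sham libraries. It was 4.75 ± 0.269 per 100 in BALB/c (SD, n = 6) and 5.38 ± 0.244 in B10.D2 (SD, n = 5), a difference of 0.18 on the log2 scale (exact permutation p = 0.00649, adjusted over 4 comparisons 0.026). In SNI libraries it was 4.57 ± 0.218 in BALB/c (SD, n = 4) and 5.08 ± 0.454 in B10.D2 (SD, n = 5), a difference of 0.15 (exact permutation p = 0.103, adjusted 0.206). The smallest p these designs allow are 0.00216 in sham and 0.00794 in SNI.

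Between the strains Scn2b and Scn4b, which are neighbours, differed in opposite directions. Scn2b lay between 34.4 and 43.0 CPM in BALB/c sham, with a median of 38.1 CPM, and read 74.6, 68.1, 69.8, 70.8 and 87.3 CPM in B10.D2 sham libraries. After SNI it read 37.2, 41.6, 38.3 and 46.0 CPM in BALB/c and 67.9, 79.8, 64.6, 77.1 and 73.1 CPM in B10.D2. The lowest B10.D2 library was above the highest BALB/c library in both conditions. In the sham libraries Scn2b was 1.92-fold higher in B10.D2, a log2 difference of 0.94 ± 0.08 (SE) with an edgeR adjusted p of 6.54e-09, and it was 1.78-fold higher among the SNI libraries, a comparison added after the data were seen (0.83 ± 0.09, edgeR adjusted p of 2.96e-07).

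Scn4b was lower in B10.D2, by -0.32 ± 0.07 (SE) on the log2 scale in sham, with an edgeR adjusted p of 0.00307, and every B10.D2 sham library was below every BALB/c sham library. In males alone the difference was -0.15, with an edgeR adjusted p of 0.253, and in females alone -0.49, with an adjusted p of 0.00389. LncRNA1779 differed by -0.15 ± 0.09, with an adjusted p of 0.322 by edgeR and an interval from -0.33 to 0.04, and its groups overlapped. Scn3b differed by 0.12 ± 0.08, with an adjusted p of 0.357 by edgeR. Of the 4 members 1 was thus called higher and 1 lower in B10.D2 sham, where 11.5% and 10% of all features were called higher and lower, 21.6% in all. Reads of both strains were aligned to the same reference genome. For Scn2b, Scn4b and the LncRNA1779 to Scn4b ratio, strain differences in mapping and in RNA therefore cannot be told apart. Of the large-neuron markers 3 were called lower and 1 higher in B10.D2 sham, and of 5 T cell markers 4 were called higher, at sums of 0.802 to 1.55 CPM in BALB/c and 1.70 to 3.16 CPM in B10.D2, and their part in these differences was not tested.

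Around the locus, 8 protein-coding genes lie within 100 kb of Scn2b and Scn4b, those included, and 7 of the 8 were tested. BC049352 was higher in B10.D2 sham, by 1.94 ± 0.18 (SE) on the log2 scale (edgeR adjusted p of 2.9e-08), at a low mean level of 0.980 CPM. Mpzl2, Mpzl3, Jaml and Il10ra had strain differences of 0.44, -0.18, -0.41 and 0.05, with edgeR adjusted p-values of 0.0916, 0.0824, 0.204 and 0.848. After SNI the only one of these 5 called was BC049352 in B10.D2, at -0.62 ± 0.17 (edgeR adjusted p of 0.0366). Gm10684, a noncoding gene on the opposite strand whose span covers Scn2b, was looked at after its values were seen. None of its exonic bases overlap an exon of Scn2b, and in B10.D2 sham it was lower by -0.71 ± 0.17 (edgeR adjusted p of 0.00354), at a mean of 1.39 CPM. The span of Gm10684 overlaps that of Scn2b, and whether the counting used strand is not given in the sources used here, so the part of shared reads was not tested.

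Between the sexes, LncRNA1779 had a male minus female log2 difference of 0.24 ± 0.07 (SE), unadjusted p of 0.00304 and adjusted p of 0.174 by edgeR, and Scn4b of 0.15 ± 0.05, unadjusted p of 0.0151 and adjusted p of 0.283. Neither passed, in a comparison in which 0.243% of all features did. The direction was not the same in every group. In BALB/c sham the males were lower in Scn4b, at 398 to 413 CPM against 427 to 439 CPM in females, while the males were higher in the remaining 3 groups, for example at 283 to 292.5 against 207 to 253.5 CPM in B10.D2 SNI. LncRNA1779 had a mean of 19.8 CPM in both sexes of BALB/c sham, and 15.7 against 11.5 CPM in males and females of B10.D2 SNI. Scn2b and Scn3b had sex differences of 0.04 ± 0.06 and -0.07 ± 0.06. With the sexes fitted apart, the change after SNI in BALB/c was -0.51 in Scn4b and -0.57 in LncRNA1779 among females (edgeR adjusted p of 0.00958 and 0.0362) and -0.21 and -0.26 among males (edgeR adjusted p of 0.289 and 0.353). In B10.D2 neither feature was called in either sex alone, with Scn4b at -0.38 in females and -0.34 in males (edgeR adjusted p of 0.087 and 0.167) and LncRNA1779 at -0.51 and -0.33 (edgeR adjusted p of 0.122 and 0.364). The difference between the sexes in the response was not tested.

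In rat, Scn4b was lower after SNT, at 56.9% of its sham level, and Scn2b and Scn3b were not called. Ganglion, injury and library type differ from those in mouse as well as the species, so the sizes are not compared. On the first principal component of the rat libraries (68.5% of the variance) sham 4 and SNT 1 stood between the other libraries of both groups. Scn4b (ENSRNOG00000026679) read 668, 1028, 841 and 626 CPM in sham libraries 1 to 4, and 608, 323, 355 and 515 CPM in SNT libraries 1 to 4. The groups did not overlap, but their nearest values, 626 and 608 CPM, came from those intermediate libraries.

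**Figure D5:**
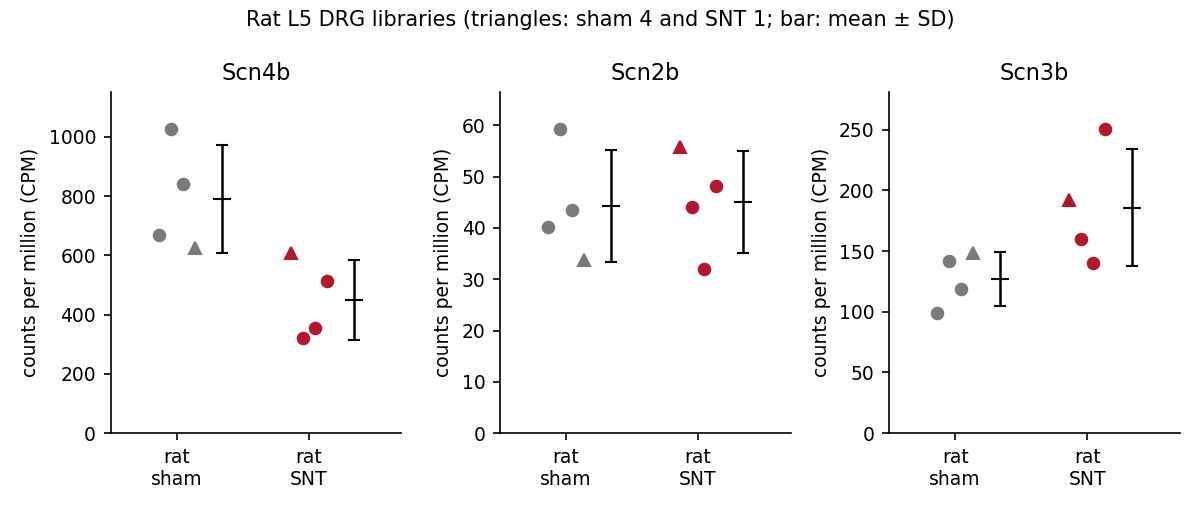
CPM of the 3 beta subunit genes in the rat libraries by surgery (bars mean ± SD, triangles sham 4 and SNT 1). Scn4b is lower in all 4 SNT libraries, with the triangles closest to each other at 626 and 608 CPM, and Scn2b and Scn3b overlap between the groups.

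The rat mean of Scn4b fell from 791 ± 184 to 450.2 ± 135 CPM (SD, n = 4 each), a log2 fold change of -0.81 ± 0.23 (SE) with an edgeR adjusted p of 0.0295. Scn4b was 1 of 3 members called, in a comparison in which 27.4% of all features were called and 15.1% were called lower. The call was lost without sham library 2 (-0.64, adjusted p of 0.0776), sham library 3 (-0.78, 0.078), SNT library 2 (-0.67, 0.0816), SNT library 3 (-0.70, 0.0803) or SNT library 4 (-0.86, 0.0528), in each case with the same edgeR test. Without both intermediate libraries, an alternative added after the data were seen, it was -1.07 with an edgeR adjusted p of 0.00301, but those libraries hold the nearest values of the 2 groups, so that this value is no further support. The call of Scn4b was also lost with the number shared by sham and SNT sample titles as a replicate block (edgeR adjusted p of 0.0882).

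Scn3b (ENSRNOG00000057221) read 99.3, 142, 119 and 149 CPM in sham and 192, 160, 140 and 251 CPM in SNT libraries, so 3 of 4 SNT libraries were above the highest sham library. Its log2 fold change was 0.55 ± 0.19 (SE), with an edgeR adjusted p of 0.0581, and the interval from 0.17 to 0.93 lay above 0. It passed with DESeq2 (0.56, adjusted p of 0.0382) and in edgeR without sham library 4 (0.64, 0.0357) or without SNT library 3 (0.68, 0.0425). Scn2b (ENSRNOG00000016221) had 44.2 ± 10.9 CPM in sham and 45.02 ± 9.93 CPM in SNT (SD, n = 4 each), a log2 fold change of 0.02 ± 0.20 with an edgeR adjusted p of 0.938, and an interval from -0.37 to 0.42.

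In the rat libraries too, cell type markers moved with the groups. Of the 9 large-neuron markers found for rat, 5 were listed at 0 in every library, and 3 of the 4 tested were called lower by edgeR, against 15.1% of all features. The list summed to 698 to 1024 CPM in sham and 331 to 603 CPM in SNT libraries. Of 6 nociceptor markers tested 4 were called lower, against the same 15.1%, with sums of 2193 to 3672 CPM in sham and 329 to 2081 CPM in SNT. Of 4 T cell markers tested 2 were called higher, where 27.4% of all features were called in either direction. Their sums were 33.7 to 86.6 CPM in sham and 101 to 153 CPM in SNT. The part of these lists in the change of Scn4b was not tested.

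Among 10 alpha subunit genes, Scn1a, Scn4a and Scn8a fell after SNI in both strains. All 10 were tested in mouse, and by edgeR these 3 were the only ones of the 10 called, a share to be read against the 9.69% and 4.58% of all features called in BALB/c and B10.D2. In BALB/c these were Scn4a (-0.71 ± 0.11, SE), Scn1a (-0.57 ± 0.06) and Scn8a (-0.47 ± 0.10), and in B10.D2 Scn1a (-0.45 ± 0.05), Scn8a (-0.39 ± 0.09) and Scn4a (-0.38 ± 0.11). The call of Scn4a in B10.D2 was close to the threshold, with an edgeR adjusted p of 0.0469. Scn4a was also low in level, with a mean of 1.36 CPM per kb in BALB/c sham against 27.6 for Scn1a. Scn1a and Scn8a encode the alpha subunits Nav1.1 and Nav1.6, and among the alpha genes that are known from pain-sensing neurons Scn10a had -0.18 and -0.09 and Scn11a -0.06 and 0.03, none of them called. The median over the list was -0.10 in BALB/c and 0.007 in B10.D2. In rat 8 of the 9 tested were called by edgeR, against 27.4% of all features, 7 lower, led by Scn11a (-2.71 ± 0.80) and Scn10a (-2.22 ± 0.63), and 1 higher, Scn3a (0.62 ± 0.18), with a median over the 9 of -1.47 against 0.003 over all features. Scn2a, at -0.46 ± 0.11, was the smallest of the 7 falls, and Scn4a was listed at 0 in every rat library.

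Beta subunits are cut by the secretases, and at nodes of Ranvier they sit with adhesion and anchoring proteins. Of 10 secretase genes 1 was called in BALB/c, Bace1, the beta-secretase that cuts beta2 and beta4, at -0.20 ± 0.05 (SE, edgeR adjusted p of 0.012), a share near the 9.69% of all features. In B10.D2 Bace1 had -0.13 ± 0.05 and an adjusted p of 0.152 by edgeR. In rat 2 of the 6 tested were called, again near the share of all features (27.4%), with Bace1 lower (-0.51 ± 0.17) and Aph1a, a part of gamma-secretase, higher (0.37 ± 0.10). Of 13 genes of the node and axon initial segment 2 were called lower by edgeR in each mouse strain, where 4.87% and 2.48% of all features were, namely Cntn1 (contactin) at -0.43 ± 0.05 and -0.33 ± 0.05, and Cntnap2 (Caspr2) at -0.42 ± 0.06 and -0.31 ± 0.05. Cntnap2 is also one of the large-neuron markers above. In rat 2 of the 6 tested were called lower, against 15.1% of all features, Nrcam and Cntn1, both at -0.74. The list medians were -0.03 and 0.03 for secretases and -0.16 and -0.05 for node genes in BALB/c and B10.D2.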

How the data were processed

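The deposited count tables hold whole-number counts of read pairs per feature, which the authors made per the study's methods and labels with STAR on mm10 (mouse) or rn6 (rat) and HTSeq (intersection and not empty), over Ensembl genes and their assembled LncRNAs; versions of these tools are not given in the sources used here. Mouse RNA was ribodepleted and rat RNA polyadenylated, and both library types kept strand. Values that the authors deposited as other quantities (DESeq2 fold changes and p-values) were not used, beyond the gene symbols beside them. B10.D2 sham 59 and BALB/c SNI 66 were not analysed here. Exon positions came from GENCODE M21 (mm10) and sequences from the RefSeq copy of GRCm38.p6, the same build.

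Mouse counts were fitted with sex and strain by surgery (20 libraries), rat counts with surgery (8), in edgeR 4.0.16 (R 4.3.3) with TMM, filterByExpr and two-sided quasi-likelihood F tests. Adjusted p-values are Benjamini-Hochberg over all features tested, and called means under 0.05. The SE is the absolute log2 fold change over the square root of F, and 95% intervals are approximate. Relations used log2(CPM + 1) and two-sided permutation tests (scipy 1.17.1, Python 3.11.15) with 100000 resamples (exact under 10 libraries), ratios log2 of counts + 0.5. Alternatives were RLE factors, DESeq2 1.42.0, no filter, at least 10 counts in every library, each library left out, no sex term, each sex alone, each strain alone, pseudocounts of 0.1 CPM and 1 count, and a block. Rat libraries are numbered in the order of the table.

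Named were the 4 members, up to 2 highest and 2 lowest called genes of each pathway list per injury comparison, the 5 features most correlated with each member, and protein-coding genes within 100 kb. Other genes named were chosen after their values were seen. The members and lists were chosen with earlier results of these data known. Some genes of the lists are not reported here and were left out of the counts. The models were tested on simulated data.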

Additional observations from a re-analysis of the deposited data

How the results depend on the processing

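After SNI, Scn4b and LncRNA1779 stayed lower in both strains under every alternative run, between -0.21 and -0.57 on the log2 scale, and kept their call except where the sexes were fitted apart, which leaves fewer libraries. In males alone (BALB/c, then B10.D2) Scn4b had -0.21 and -0.34 and LncRNA1779 -0.26 and -0.33, and in females alone Scn4b had -0.38 and LncRNA1779 -0.51 in B10.D2, none called. The strain difference of Scn4b in sham was -0.15 in males and was not called, whereas that of Scn2b was called under all 28 alternatives, from 0.83 to 1.04. The SNI change of Scn2b, which was never called, turned sign in females (-0.000466 in BALB/c, 0.00071 in B10.D2) and with libraries left out in B10.D2 (-0.0640 to 0.0345). The strain differences in response turned sign in females for Scn2b (0.00118), Scn3b (-0.0415), Scn4b (0.133) and LncRNA1779 (0.0615), and with libraries left out for Scn4b (-0.0635 to 0.0315) and LncRNA1779 (-0.0734 to 0.0556).

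Counts of called features moved most with the sexes apart. Males and females gave 415 and 902 for SNI in BALB/c, 95 and 187 for SNI in B10.D2, 3077 and 2611 for strain in sham, and 1 and 0 for the difference in response (926 at an unadjusted p under 0.05 in females by edgeR). Leaving out libraries gave 665 to 1214 in B10.D2 (main count 1130), 3 to 6 for the difference in response (6), 35 to 159 for sex (60) and 1483 to 5041 in rat (3753). DESeq2 called 10 features for the difference in response and 242 for sex, at least 10 counts in every library gave 3 for the former, and no filter gave 222 for sex. The causes were not tested.

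In rat, Scn4b ranged from -0.99 to -0.64, Scn3b from 0.39 to 0.68 and Scn2b from -0.0928 to 0.220 with libraries left out. DESeq2 gave 0.56 for Scn3b, and leaving out both intermediate libraries gave -0.19 for Scn2b, 0.63 for Scn3b and 6105 called features. Sham and SNT libraries that share a number in the rat sample titles had deviations correlated at -0.238 to 0.053. These values show no pairing by that number, but so few libraries cannot exclude one. With that number as a replicate block Scn4b was -0.82 with an edgeR adjusted p of 0.0882, and 2558 features were called. No mouse number is shared between groups, so the labels give no pairing there. With another pseudocount or a library left out, the relation of LncRNA1779 to Scn4b had r of 0.895 to 0.935 over all libraries and 0.901 to 0.950 with groups centred, and 0.883 with sex centred too. Without the 2 farthest libraries these 3 values came to 0.871, 0.920 and 0.752, the last with a permutation p of 0.0851, and among sham or SNI libraries alone r came to 0.533 and 0.644. LncRNA1779 rests on 359 to 838 counts per library. Intervals cover neither the batch of animals nor dissection.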
